A study of Mus musculus with 2 samples.

Results

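The 9 genes described here, Alas1, Alad, Uros, Urod, Cpox, Ppox, Fech, Hmox1 and Blvrb, encode enzymes that build haem or break it down, and they are represented by 12 of 55669 usable probes on the array (9 of 35014 gene names). Microglia, macrophages that live in brain and spinal cord, had been sorted from the spinal cord of atopic diathesis model mice (a model of allergic predisposition, titled activated by the submitters) and of control mice (titled normal). Total RNA of 1 sample per group was measured on 1-colour Agilent mouse arrays. How the model was made, and the strain, age and number of mice behind each sample, do not appear in the sources used here. The genes were chosen by name, and the group was selected on measured values, because Fech read far lower and Hmox1 higher in atopic diathesis. The differences of these 2 genes are therefore descriptions and lend no support to anything else. Each group has a single array, so differences have no replicate check, and none was tested.

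Haem is made by a chain of enzymes that starts and ends in the mitochondrion, with the middle steps in the cytosol. Alas1 sets the rate in most cells, and Fech closes the pathway by placing iron into protoporphyrin. Haem oxygenases open the haem ring, which frees iron and carbon monoxide and leaves biliverdin, and biliverdin reductases turn that into bilirubin. In macrophages the inducible oxygenase Hmox1 is known as a stress-responsive gene under the repressor Bach1 and the activator Nfe2l2 (NRF2), while Hmox2 is the constitutive form.

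Several genes of the pathway carry a pair of probes that lie apart along the chromosome, and these did not always read alike. The following probes bear on those comparisons or on a gene seen on 1 array: the Hmox1 probe that stayed near background, both Blvra probes, which gave like differences, the Hmox2 probe with the smaller difference, and the single Alad probe. Sequences are the 60 bases printed in the array files, with positions on mm9 from the same files, and no base is singled out by capitals.
Hmox1 (chr8:77620797-77620856, plus strand): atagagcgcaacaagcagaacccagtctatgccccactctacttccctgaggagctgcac
Hmox2 (chr16:4764971-4765030, plus strand): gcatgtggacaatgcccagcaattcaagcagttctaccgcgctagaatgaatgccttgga
Blvra (chr2:126912587-126912646, plus strand): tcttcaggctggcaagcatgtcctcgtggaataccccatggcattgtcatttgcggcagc
Blvra (chr2:126922489-126922548, plus strand): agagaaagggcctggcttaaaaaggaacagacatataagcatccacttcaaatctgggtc
Alad (chr4:62172559-62172618, minus strand): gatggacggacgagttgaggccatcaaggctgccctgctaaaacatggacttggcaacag
None of the 12 probes of these 9 enzymes, nor those of Hmox2 and Blvra, shared 20 bases in a row with any other probe on the array.

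Signals below are the background-subtracted processed signal of 1 spot in arbitrary fluorescence units, with the error that the scanner software assigns to that spot, written as signal ± error. A signal says nothing about the level of another gene, since probes differ in brightness. A probe is called measured where the software marked it well above background on both arrays. The lowest signal so marked was 19.9 on the atopic diathesis array and 19.8 on the control array. Each log2 difference or fold sets atopic diathesis over control and is taken relative to the median of the 9217 measured genes, which itself differed by -0.03 before centring. Spot error was pooled over probes printed repeatedly, 47 with the dimmer signal under 100 and 54 with both signals at 100 or more. It gave a 95% interval for a log2 difference of ±0.54 in the dimmer class and ±0.20 in the other. This interval covers the spots only, not how mice, sorts or amplifications vary.

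On the atopic diathesis array 27.6% of probes were well above background, against 24.1% on the control array, and no spot was saturated. All 7 microglia markers were measured and differed by less than 2-fold from the median gene, with a median of -0.11, although the Itgam probe shares 20 bases with probes of 72 other genes. None of the 12 red cell markers with a probe, including the haemoglobin genes, was marked well above background by the software, and their summed signal was 91.6 in atopic diathesis and 88.9 in control microglia. Of 32 markers of other cell types with a probe, 23 were marked above background on neither array. The exceptions included Gfap and Slc1a3 of astrocytes, Mbp of oligodendrocytes and Snap25 of neurons, all within 2-fold, and Mag of oligodendrocytes, seen in atopic diathesis microglia alone (at least 2.53-fold higher). Mobp of oligodendrocytes was above background on different probes on each array. Snap25 sits on a probe that shares 20 bases with probes of 70 other genes. The endothelial genes Pecam1 and Flt1 were each above background on 1 array, Pecam1 at least 6.57-fold higher and Flt1 at least 16.1-fold lower in atopic diathesis. Summed marker signals were 780 in atopic diathesis and 798 in control microglia for astrocytes, 732 in atopic diathesis and 824 in control microglia for oligodendrocytes, and 140 in atopic diathesis and 338 in control microglia for endothelial cells. No marker of neutrophils, T and B cells, monocytes and border macrophages or mast cells was marked above background. Whether other cells contributed to the haem enzyme signals was not tested. Fewer cells of a type and less RNA per cell cannot be told apart in such samples.

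Of the 9 haem enzymes, 4 were measured on both arrays, 3 were above background in atopic diathesis microglia alone, 1 in control microglia alone and 1 on neither array. Among all genes, 26.3% were measured on both arrays, 8.06% were detected in the atopic diathesis sample alone and 4.14% in the control sample alone. The measured enzymes were Alas1, Ppox, Fech and Hmox1, each on 1 probe. All 4 lay at least 2-fold from the median gene, Ppox and Hmox1 higher and Alas1 and Fech lower. Across all measured genes 17.3% were higher by that much, 15.6% were lower and 67.1% lay within 2-fold. Fech and Hmox1 led to the choice of the group, and all members were chosen with earlier results of these data known. The count is therefore a description, for Alas1 and Ppox as well. The median of the 4 was 0.19, between 2 values on either side, and describes no shared direction. When each array was scaled to its own 75th percentile over all probes, the counts over all genes were 989 higher and 2503 lower in place of 1596 and 1436, and the median gene itself lay at -0.50, but the 4 enzymes kept their sides of the 2-fold mark.

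**Figure D1:**
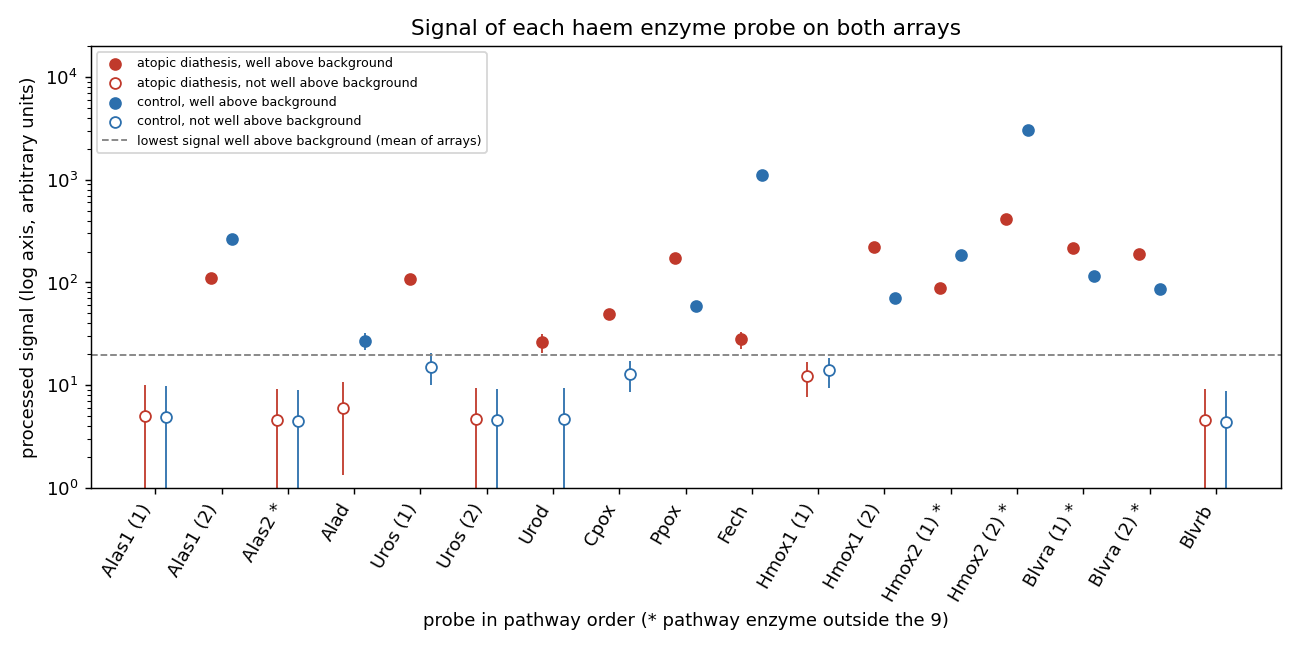
Processed signal of each probe of the 9 haem enzymes and, marked with an asterisk, of Alas2, Hmox2 and Blvra, in pathway order, on a log axis, with probes of one gene numbered by position on the chromosome. Red points are atopic diathesis and blue points control, bars are the software's error for the spot (lower ends run off the axis for the dimmest spots), and open points were not well above background. Fech read 28.0 in atopic diathesis and 1103 in control microglia.

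Alas1, the synthase of 5-aminolevulinate and the rate-limiting first enzyme outside red cells, was lower in atopic diathesis microglia. Its measured probe, at chr9:106136284-106136343 on the minus strand, read 110 ± 11.8 in atopic diathesis and 265 ± 26.9 in control microglia. The log2 difference was -1.23, a 2.35-fold lower signal, with a spot interval of -1.44 to -1.03 from the repeated spots. The software's errors for these spots are larger. They correspond to a standard error of 0.21 for the log2 difference, against 0.10 from the repeated spots, so the interval does not place Alas1 clearly past 2-fold. The other Alas1 probe, 488 bases away, read 5.07 in atopic diathesis and 4.88 in control microglia, at background on both arrays. With normexp background correction the measured probe gave -0.88, and with uncorrected signals -0.81, both inside 2-fold. With no background filter the mean of both Alas1 probes was -0.65, also inside 2-fold. Alas2, the red cell form of the enzyme, was marked above background on neither array, at 4.64 in atopic diathesis and 4.51 in control microglia.

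Of the next cytosolic steps, Alad and Urod were near the limit of detection. Alad, which joins a pair of aminolevulinate molecules into porphobilinogen, was the only haem enzyme of the 9 detected in control microglia alone. It read 6.08 ± 4.74 in atopic diathesis and 27.1 ± 5.35 in control microglia, and the bound was at least 1.33-fold lower. A bound here is the bright signal over the higher of the dim probe's own signal and the lowest signal well above background on the dim array. It takes no spot error into account. Of the genes detected on the control array alone, 51.1% had a bound of at least 2-fold, a mark that Alad did not reach.

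Uros, Urod and Cpox, which follow one another in the pathway, were all detected in atopic diathesis microglia alone. Uros, the synthase that closes the uroporphyrinogen ring, had 108 ± 11.8 in atopic diathesis and 15.2 ± 5.19 in control microglia, at least 5.56-fold higher. Its probe lies at chr7:140878069-140878128 on the minus strand, and a second Uros probe 5749 bases away read 4.74 in atopic diathesis and 4.64 in control microglia. Cpox, the mitochondrial coproporphyrinogen oxidase, read 49.3 ± 6.39 in atopic diathesis and 12.9 ± 4.25 in control microglia, at least 2.55-fold higher. Urod, the decarboxylase between these enzymes, read 26.2 ± 5.47 in atopic diathesis and 4.67 ± 4.68 in control microglia, and its bound was at least 1.36-fold. Uros and Cpox thus passed the 2-fold mark as bounds and Urod did not, where 59.2% of all genes seen in atopic diathesis microglia alone did. With all-probe percentile scaling the log2 bound of Cpox was 0.85, inside 2-fold, against 1.35 as reported, with normexp 0.58, with uncorrected signals 0.45 and 0.86 by the authors' deposited values. The Uros bound on the log2 scale was 2.48, against 1.05 with normexp and 0.86 with uncorrected signals. More genes were detected on the atopic diathesis array in general, and the part of that difference in these 3 results was not tested.

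Ppox, the mitochondrial oxidase that makes protoporphyrin, the substrate of Fech, was higher in atopic diathesis microglia. Its only probe read 175 ± 18 in atopic diathesis and 58.8 ± 7.34 in control microglia. The log2 difference was 1.60 (3.04-fold) with a spot interval of 1.06 to 2.15. The 60-base probe spans 178 bases of chromosome 1 (173207452 to 173207629, minus strand), so its bases are not contiguous in the genome. With normexp the value came to 1.0, just under 2-fold, and with uncorrected signals to 0.89.

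**Figure D2:**
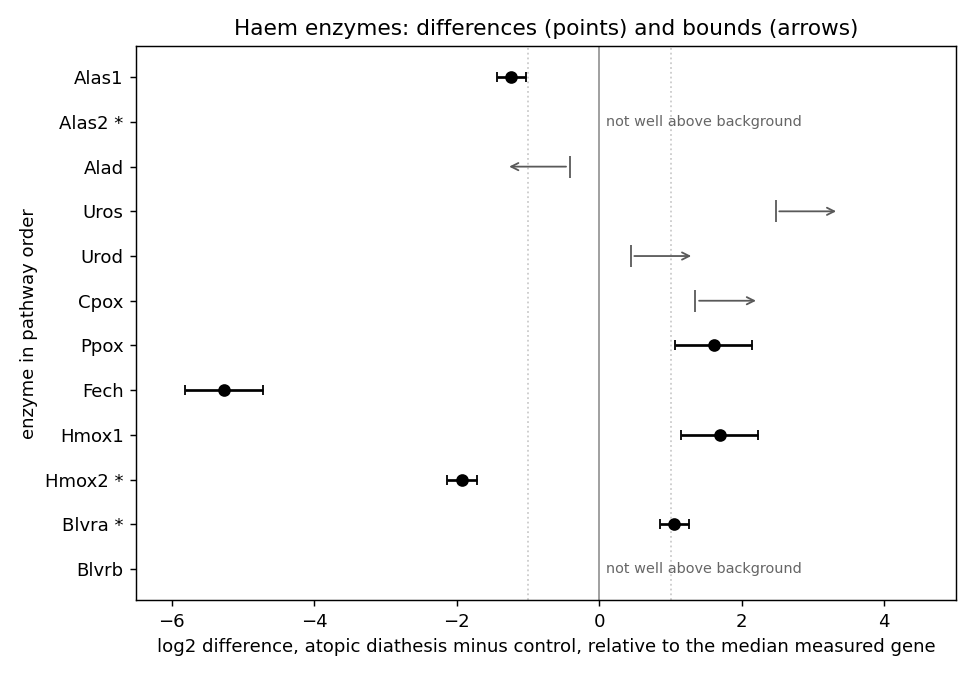
Log2 difference of each enzyme, atopic diathesis minus control relative to the median measured gene, from the first step of synthesis at the top to biliverdin reduction at the bottom. Points with bars are measured genes with the 95% spot interval. Arrows start at the bound of a gene detected on 1 array, which takes no spot error into account. Asterisks mark Alas2, Hmox2 and Blvra, which are outside the 9, and dotted lines mark 2-fold.

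Fech, the ferrochelatase, had the largest difference of the 9 and was the value that led to their choice. Its single probe read 28.0 ± 5.23 in atopic diathesis and 1103 ± 110 in control microglia. The log2 difference was -5.27, a 38.5-fold lower signal, with a spot interval of -5.81 to -4.72, and it ranked eighth from the lowest among measured genes. Neither spot was marked an outlier. Before background subtraction the mean over the spot's pixels was 116 in atopic diathesis (median 118, 41 pixels) and 1158 in control microglia (median 1101, 44 pixels). Negative control spots averaged 82.6 ± 4.0 on the atopic diathesis array and 78.5 ± 4.21 on the control array (SD over 308 spots each). The Fech spot therefore stood above the negative controls on both arrays, and the size of the fold depended on what was subtracted. Normexp gave -3.56, uncorrected signals -3.32 and the authors' deposited values, which read 24.1 in atopic diathesis and 1062 in control microglia, -5.46.

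The position of Fech among genes of like brightness is a description of these 2 arrays. Of the measured genes, 454 had a control signal within 1.2 times that of Fech, and their atopic diathesis signals had a median of 931 and a 5th percentile of 121. The Fech signal of 28.0 lay below that percentile. By Euclidean distance of the log2 signals over the 2 arrays, the measured gene nearest to Fech was Ciz1, with 30.7 in atopic diathesis and 1166 in control microglia, at a distance of 0.15. The next were 5930416I19Rik, with 27.6 in atopic diathesis and 975 in control microglia, and a transcript that the files name by an Ensembl identifier only. The Fech probe lies on mm9 chromosome 18 at 64616928 to 64616987, minus strand.

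**Figure D3:**
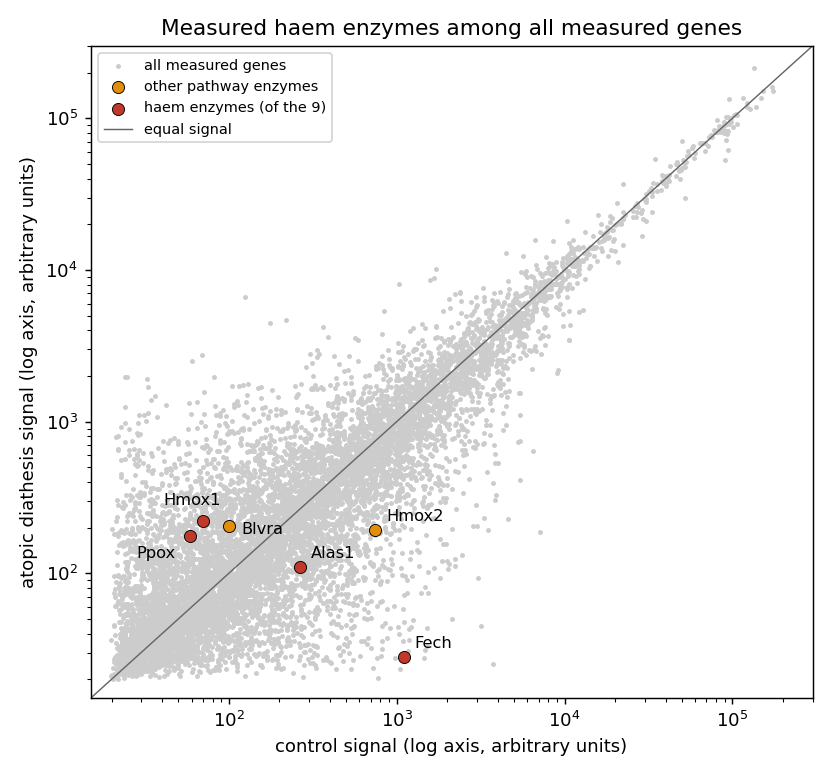
Signal of every measured gene in atopic diathesis (vertical) against control microglia (horizontal), both on log axes, with the measured haem enzymes in red and other measured enzymes of the pathway in orange. Fech lies far below the line of equal signal, at 28.0 in atopic diathesis and 1103 in control microglia, while Hmox1, Ppox and Blvra lie above it and Alas1 and Hmox2 below.

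On the side of haem breakdown, the oxygenases went opposite ways. Hmox1 read 220 ± 22.4 in atopic diathesis and 70.0 ± 8.13 in control microglia on the probe at chr8:77624207-77624266 on the plus strand. Its log2 difference was 1.69 (3.22-fold higher), with a spot interval of 1.15 to 2.23. The Hmox1 probe whose sequence is given above lies 3410 bases upstream and read 12.4 ± 4.62 in atopic diathesis and 14.0 ± 4.51 in control microglia, marked above background on neither array. With no background filter the mean of both Hmox1 probes was 0.70, inside 2-fold. Nearest to Hmox1 over the 2 arrays was B3galt5, with 223 in atopic diathesis and 69.7 in control microglia, followed by a probe set that the files name by its region only and by Cnp, a myelin-associated enzyme gene, with 216 in atopic diathesis and 68.2 in control microglia.

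Hmox2, outside the 9, was lower on both of its probes. The 9 were chosen with earlier results of these data known, so Hmox2 is not independent of that choice. The brighter probe, 1122 bases downstream of the one shown, read 414 ± 41.7 in atopic diathesis and 3019 ± 302 in control microglia, a log2 difference of -2.83. The probe shown read 88.9 ± 10.2 in atopic diathesis and 185 ± 19.1 in control microglia, a difference of -1.02. Both probes were on the lower side, but they differed from each other by more than the spot interval. The gene value, their mean, was -1.93. Its spot interval of -2.13 to -1.72 was set from the gene's mean signals, 192 in atopic diathesis and 746 in control microglia. Neither probe's own difference lies inside that interval, which leaves out the spread between probes. The gene value stayed past 2-fold under all 12 other processings tried, between -2.84 and -1.60.

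The biliverdin reductases ended the pathway. Blvrb read 4.62 in atopic diathesis and 4.40 in control microglia and was marked above background on neither array, so it has no difference to report. Blvra, the main reductase of adult tissue, read 218 ± 22.4 in atopic diathesis and 116 ± 12.5 in control microglia on one probe, and 191 ± 19.6 in atopic diathesis and 87.0 ± 9.77 in control microglia on the other, 9902 bases away. These gave log2 differences of 0.95 and 1.16 and a gene value of 1.06 (2.08-fold higher), close to the 2-fold mark. With all-probe percentile scaling it was 0.56, with normexp 0.68, and it was also inside 2-fold with uncorrected signals (0.62), by the authors' deposited values (0.82), by its brightest probe (0.94), after quantile normalization (0.99) and under both looser filters (0.87 and 0.98). Of the 6 enzymes of the whole pathway measured on both arrays, Ppox, Hmox1 and Blvra were higher and Alas1, Fech and Hmox2 lower.

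The counts for the related gene lists that follow are descriptions and stand beside these all-gene shares: 17.3% higher and 15.6% lower among measured genes, and 8.06% of all genes detected in atopic diathesis microglia alone and 4.14% in control microglia alone. Of 12 haem and porphyrin carriers, 6 were measured, with 2 at least 2-fold higher, 1 lower and a median of 0.73. Abcg2, an efflux pump that also carries porphyrins, read 170 in atopic diathesis and 38.0 in control microglia (2.20), and Slc25a38, a mitochondrial glycine carrier that feeds the Alas step, 52.1 in atopic diathesis and 23.6 in control microglia (1.17). Tmem14c, which is needed for porphyrin import into mitochondria in red cell precursors, was lower, with 374 in atopic diathesis and 891 in control microglia (-1.22). The mitochondrial transporter Abcb6 was seen in atopic diathesis microglia alone, higher by at least 5.58-fold. The haem exporter Flvcr1 was within 2-fold (-0.47).

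Of 22 genes for iron uptake, storage and sensing, 13 were measured and 12 of these lay within 2-fold, where 67.1% of all measured genes did, with a median of 0.03. Fth1, the ferritin heavy chain, had 0.53, the exporter Slc40a1 0.90 and the transferrin receptor Tfrc -0.34. Slc25a28, the mitochondrial iron importer of non-erythroid cells, was the only gene at least 2-fold lower, at 26.7 in atopic diathesis and 86.4 in control microglia (-1.66). Its relative Slc25a37 was within 2-fold (-0.68).

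Of 15 genes of iron-sulphur cluster assembly, which supplies the cluster that Fech carries, 6 were measured, 2 higher and 1 lower (17.3% and 15.6% of all measured genes), with a median of 0.65. Fdxr, the reductase that hands electrons to ferredoxin, read 283 in atopic diathesis and 24.0 in control microglia (3.59), and Hspa9, a mitochondrial chaperone, 1094 in atopic diathesis and 171 in control microglia (2.71). Lyrm4, a partner of the cysteine desulphurase, was lower, with 166 in atopic diathesis and 354 in control microglia (-1.06). Glrx5 and Bola3, which act in cluster transfer, were detected in control microglia alone, at least 4.07-fold and 3.82-fold lower, as was the desulphurase gene Nfs1 (at least 2.61-fold). Isca1 was seen in atopic diathesis microglia alone, higher by at least 2.79-fold.

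**Figure D4:**
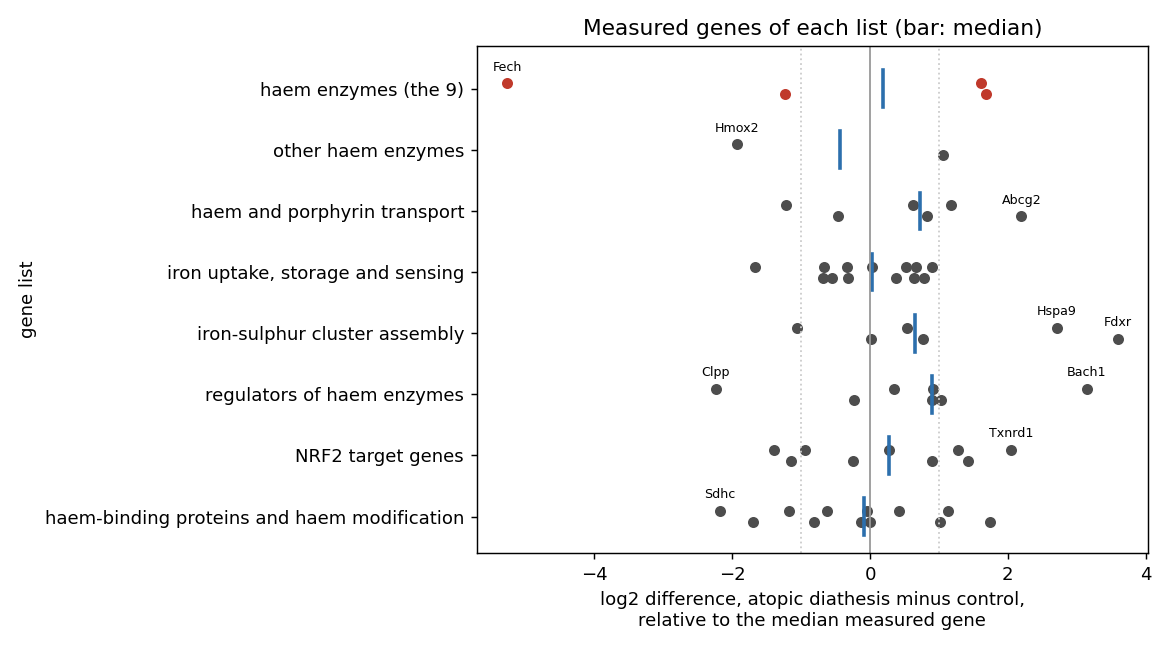
Log2 differences of the measured genes of each list, atopic diathesis minus control relative to the median measured gene, with a blue bar at the median of the list and names for genes beyond 1.9 in size. Dotted lines mark 2-fold. Genes detected on 1 array only are not drawn.

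Among 18 regulators of haem enzymes, 7 were measured, 2 higher and 1 lower (17.3% and 15.6% of all measured genes), with a median of 0.91. Bach1, the haem-sensing repressor of Hmox1, was higher, with 865 in atopic diathesis and 99.9 in control microglia (3.15, 8.85-fold). Hmox1 and Bach1 were thus both higher in the atopic diathesis sample. Nfe2l2, the activator NRF2, was seen in atopic diathesis microglia alone, at 68.7 in atopic diathesis and 12.7 in control microglia, at least 3.55-fold higher. Of the small Maf proteins that pair with both factors, Maff was detected in control microglia alone (8.37 in atopic diathesis and 134 in control microglia, at least 6.59-fold lower), Mafk in atopic diathesis microglia alone (at least 2.63-fold higher), and Mafg had 0.91. Nr1d1, a haem-binding nuclear receptor of the clock, read 344 in atopic diathesis and 4.92 in control microglia, at least 17.8-fold higher, and its relative Nr1d2 had 1.02. Clpp, the protease subunit of the complex that acts on the Alas1 protein, was lower, with 42.5 in atopic diathesis and 205 in control microglia (-2.24). Eif2ak1, the haem-regulated kinase of translation, was detected in control microglia alone, at least 2.36-fold lower.

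Of 15 other NRF2 target genes, 9 were measured, 3 higher and 2 lower (17.3% and 15.6% of all measured genes), with a median of 0.27. The higher ones were Txnrd1 (2.04), Taldo1 (1.43) and Txn1 (1.28), and the lower ones Tkt (-1.39) and Gclc (-1.15). Nqo1, Gclm, Slc7a11, Me1 and Osgin1 were marked above background on neither array.

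Of 22 genes for proteins that hold or modify haem, 12 were measured, 3 higher and 3 lower (17.3% and 15.6% of all measured genes), with a median of -0.08 and the remaining 6 within 2-fold. The cyclooxygenase Ptgs1 had 1.75, the phagocyte oxidase subunit Cyba 1.13 and the b-type cytochrome Cyb5a 1.02. Sdhc, a haem-holding subunit of succinate dehydrogenase, read 229 in atopic diathesis and 1065 in control microglia (-2.18), Cox15, which makes haem A, 159 in atopic diathesis and 528 in control microglia (-1.70), and the cytochrome c gene Cycs had -1.17. Cybb, the haem subunit of the phagocyte oxidase and partner of Cyba, was detected in control microglia alone, with 13.4 in atopic diathesis and 294 in control microglia, at least 14.4-fold lower. Cygb and Ptgs2 were seen in atopic diathesis microglia alone, higher by at least 4.74-fold and 4.26-fold. Of 4 scavenging genes, Lrp1, the receptor for haemopexin-bound haem, was measured, within 2-fold (-0.31), and Hpx, Hp and Cd163 were marked above background on neither array.

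**Figure D5:**
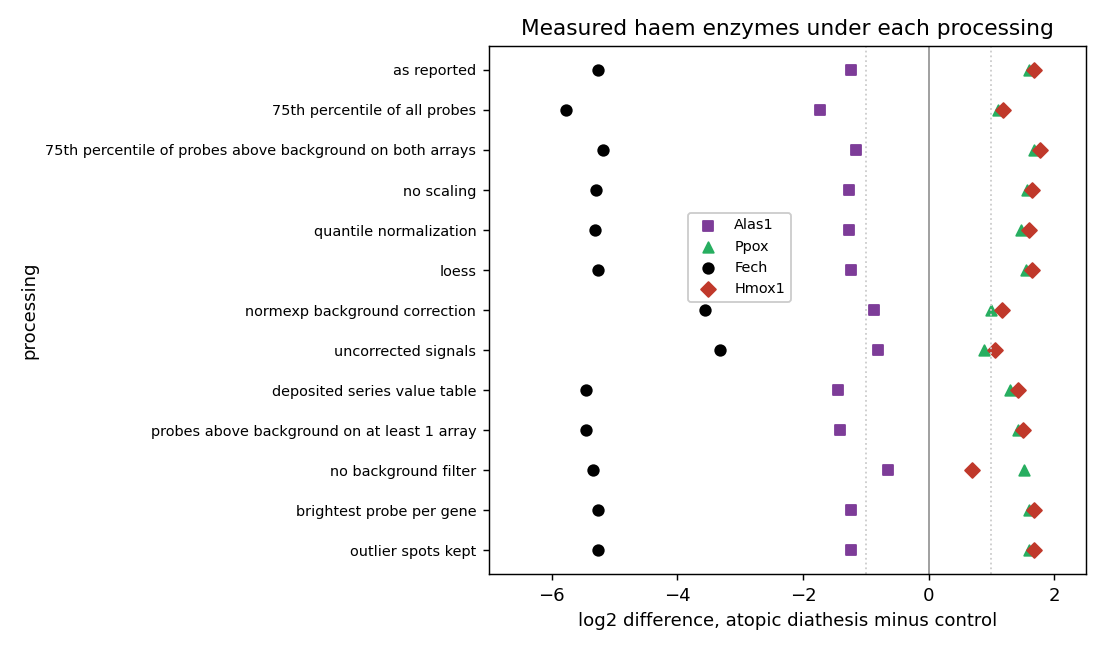
Log2 difference of the 4 measured haem enzymes, atopic diathesis minus control, as reported and under 12 other processings. Each enzyme keeps its side of 0 in all of them, Fech lies between -5.77 and -3.32, and dotted lines mark 2-fold.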

How the data were processed

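Per the labels' protocols, RNA extracted with TRIzol was column-purified, amplified by a low-input kit and labelled with Cy3. The deposited scanner files hold fluorescence intensity per spot on a linear scale, background-subtracted by Agilent Feature Extraction (version 10.7.1.1 per the file headers, 9.5.1.1 per the submitters' processing notes). The authors' deposited table gives a linear intensity for each probe, with a median of 6.64 on both arrays. How it was normalized is not stated in the sources used here. Both arrays were on 1 slide, so array position and group cannot be told apart.

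Control spots (3671 per array) and outlier spots (122 in atopic diathesis, 136 in control) were left out, spots of a probe were averaged as log2, and a gene was the mean of its probes well above background on both arrays. Of all probes, 27235 were named through RefSeq accessions (GRCm38.p6, for names only), and members by the name in the files. Spot error came from 101 probes printed 10 times. Values were computed in Python 3.11.15, and normexp (offset 50) in limma 3.58.1. Steps were tested on simulated data.

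Members and lists were chosen with earlier results of these data known. Named were the pathway enzymes, from each list up to 4 measured genes beyond 2-fold and the 2 highest bounds of at least 2-fold, and the 3 genes nearest to Fech and Hmox1. Other list genes were named after their values were seen, and some genes the rule names are not reported here. Alternatives were other scalings, background corrections, filters and probe rules.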

Additional observations from a re-analysis of the deposited data

How the results depend on the processing

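No paired analysis was possible because each group has 1 sample. The 4 measured haem enzymes kept their direction under all 12 alternatives. Fech stayed past 2-fold in all of them, between -5.77 and -3.32. The count of enzymes at least 2-fold higher was 2 as reported, 1 with normexp and 1 with uncorrected signals, 5 of 8 where detection on 1 array sufficed, and 4 of 9 with no background filter. The count at least 2-fold lower was 2 as reported, 1 with normexp and 1 with uncorrected signals, 3 of 8 where detection on 1 array sufficed, and 2 of 9 with no background filter. Over all 9217 measured genes, 1596 were higher and 1436 lower as reported, 1008 and 965 with normexp, and 900 and 882 with uncorrected signals. Where detection on 1 array sufficed, 3933 of 13579 genes were higher and 2955 lower. With no background filter, 5604 of 35014 were higher and 3065 lower. The median of the enzymes was 0.19 as reported, -0.31 with scaling to the all-probe 75th percentile, 1.46 where detection on 1 array sufficed and 0.70 with no background filter. The looser filters take in enzymes near background (8 and 9 in place of 4). Where detection on 1 array sufficed, Uros, Urod and Cpox entered through the atopic diathesis array alone, and Alad through the control array alone. Their side then follows from the filter, so these counts and this median lend no support to a direction. Scaling to the all-probe 75th percentile moved every measured gene by the same amount, with the median measured gene at -0.50. The cause of the shifts with normexp and uncorrected signals was not tested. Bounds could not be computed under the looser filters, which leave no gene detected on 1 array. The log2 bound of Urod was 0.44 as reported and came to -0.06 both with all-probe percentile scaling and in the deposited table, which leaves no bound. Dim signals limit all results on Alad, Urod, Cpox and the atopic diathesis signal of Fech, and 1 array per group limits every comparison.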
